A study of Mus musculus with 9 samples.

Results

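The 8 genes described here are Rgs16, Klf10, Tcim, Maff, Sowahb, Slc34a2, Areg and Fibin. They were picked by name out of 16266 genes measured in mouse liver because their transcript level (FPKM, a read density per gene length and per sequenced library) was lower in ethanol-fed livers given Mettl3 than in ethanol-fed livers without it. That difference therefore chose the genes, and it is given below as a description with no test. The 9 libraries, 3 in each of 3 groups, came from the livers of wild-type mice injected in the tail vein with an adeno-associated virus of serotype 8, whose TBG promoter is active in hepatocytes. The first group received a virus carrying Mettl3 with a 3×FLAG tag and ate the ethanol diet (titled Mettl3OE EtOH-fed), the second had no added Mettl3 and ate the ethanol diet (WT EtOH-fed), and the last had no added Mettl3 and was pair-fed the control diet (WT Pair-fed). The design text names a control virus with an empty cloning site (MCS-3×FLAG), while the titles of the WT groups name no virus. These are called control-virus livers here. Feeding started 3 weeks after injection, lasted 10 days, and closed with 1 binge of ethanol or maltose. The labels number the samples without naming animals, so p-values measure the spread between these samples. Age and sex are not given in the sources used here.

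Mettl3 is the catalytic subunit of the enzyme complex that methylates adenosine at N6 (m6A) in messenger RNA while it is made. Proteins that read m6A can shorten or lengthen the life of the transcript, and short-lived transcripts of signalling genes are among its known targets. Whether any of the 8 genes is short-lived or such a target was not measured here. Rgs16 and Klf10 are known in rodent liver as genes induced by sugar through the transcription factor ChREBP, Maff and Areg are early-response genes of growth factor and stress signalling, and Slc34a2 is best known from lung and gut epithelium.

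Total reads over the listed genes lay between 34655840 and 38159563 per library. The transgene was visible in its group: Mettl3 had 38.5, 25.0 and 33.3 FPKM in Mettl3 livers 1 to 3, against 5.44, 4.86 and 3.78 FPKM in control-virus ethanol-fed livers and 3.97, 3.10 and 3.38 FPKM in pair-fed livers. All 7 hepatocyte markers found in both tables passed the FPKM minimum, with summed levels of 39763 to 48611 FPKM in Mettl3 livers, 45021 to 61283 FPKM in control-virus ethanol-fed livers and 54344 to 59968 FPKM in pair-fed livers. For some of these genes, though not for Maff or Sowahb, control-virus ethanol-fed liver 1 stood apart from the other 2 of its group. It was the highest of the 3 in 7 of the 8 genes, Sowahb being the exception, and it was the highest in 55.2% of all genes. Values of the 8 genes between the ethanol-fed groups, or of control-virus ethanol-fed over pair-fed livers, that move by more than 1.5 times without it are given with and without it.

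The genes lie on 5 autosomes (GRCm38, the assembly that mm10 names). RefSeq places Rgs16 at chr1:153740353-153745468, Fibin at chr2:110360925-110362993 and Tcim at chr8:24437172-24438946. It places Slc34a2 at chr5:53049353-53071664, Areg at chr5:91139599-91148432 and Sowahb at chr5:93041123-93045022. Klf10 lies at chr15:38291464-38300711 and Maff at chr15:79346621-79359078. Areg and Sowahb sit on chromosome 5 with 1.89 Mb between them, and Slc34a2 is on the same chromosome, whereas Klf10 and Maff share chromosome 15 at a distance of 41.0 Mb. RefSeq promoter windows (GRCm38.p6) were found for 6 of the 8 genes, in 8 windows because Maff has 3 annotated starts. Tcim and Klf10 are named only. The 250 bases before each start were searched on both strands for the cAMP response element TGACGTCA and for its core TGACG, which lies inside the full element. The E-box CACGTG, the AP-1 site TGANTCA, the TATA box TATAAA, the GC box GGGCGG and the Maf core TGCTGA were searched too. These windows are shown because they hold the motifs that were found, and because Rgs16 carries the largest difference between the groups. Capitals mark every match other than the GC box.

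Areg, chr5:91139349-91139598, plus strand: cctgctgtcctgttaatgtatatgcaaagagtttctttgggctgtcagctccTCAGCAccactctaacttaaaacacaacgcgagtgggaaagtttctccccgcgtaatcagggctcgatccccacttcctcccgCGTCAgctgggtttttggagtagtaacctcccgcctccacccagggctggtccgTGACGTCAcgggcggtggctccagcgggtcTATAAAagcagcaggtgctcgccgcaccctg
Maff, middle start, chr15:79347270-79347519, plus strand: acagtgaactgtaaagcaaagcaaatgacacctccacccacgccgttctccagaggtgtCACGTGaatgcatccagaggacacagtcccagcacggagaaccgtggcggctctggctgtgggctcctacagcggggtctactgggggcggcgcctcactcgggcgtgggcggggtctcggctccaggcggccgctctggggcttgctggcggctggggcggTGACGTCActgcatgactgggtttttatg
Rgs16, chr1:153740103-153740352, plus strand: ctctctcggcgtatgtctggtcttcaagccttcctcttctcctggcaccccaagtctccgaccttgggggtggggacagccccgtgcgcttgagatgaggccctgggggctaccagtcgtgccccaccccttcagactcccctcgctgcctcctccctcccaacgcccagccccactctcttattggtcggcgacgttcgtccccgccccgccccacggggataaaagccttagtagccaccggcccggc

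The full cAMP response element was present in the Areg window, 61 bases before the start, and in the middle Maff window, 29 bases before the start. These were 2 of the 8 windows, and 1.55% of all 32851 promoter windows of the same length hold it. The core TGACG was in 3 of the 8 windows, all of Areg or Maff, against 17.8% of all windows. The E-box was in the same Maff window only, against 6.02% of all, and TATAAA in the Areg window only, against 12.4%. No AP-1 site was found in the 8 windows (6.75% of all windows), and the Maf core was in the Areg window alone (16.1% of all). GC boxes were in 5 of the 8 windows, those of Rgs16, Areg and Sowahb and 2 of Maff, against 32.7% of all windows. The G and C content was 66.4% for Rgs16, 57.2% for Areg, 70.8% for Sowahb, 69.6% for Slc34a2 and 54.8% for Fibin. For the Maff windows it was 48.0%, 64.0% and 60.4%, and the median of all windows was 52.4%. The part of this composition in the motif counts was not tested. A match describes the letters and does not show binding.

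In the mature transcripts (GENCODE M21, GRCm38; 1 messenger RNA per gene) the pentamer GGACT, the most usual form of the m6A consensus, was counted, together with ATTTA, the core of AU-rich elements that mark short-lived messages. Of the 10229 genes tested across all 9 livers, 9621 had a transcript, with a median of 1.05 GGACT and 0.803 ATTTA per kb. GGACT density was above that median in 7 of the 8 genes. Areg had 3 sites in 1215 bases (2.47 per kb, above 94.6% of tested genes) and Fibin had 5 sites in 2267 bases (2.21 per kb, above 91.4%). Rgs16 had 4 sites in 2339 bases (1.71 per kb), and Klf10 was the exception with 1 site in 3044 bases (0.329 per kb). ATTTA density was above the median in 6 of the 8, led again by Areg with 4 copies (3.29 per kb), while the Sowahb transcript held 0 copies in 3900 bases. These motifs were chosen after the data had been seen, methylation itself was not measured, and no test was made of these densities.

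Rgs16 encodes a regulator of G protein signalling, a protein that speeds GTP hydrolysis by Gi and Gq alpha subunits and so shortens receptor signals. It had 4.76, 11.1 and 8.08 FPKM in Mettl3 livers, against 227, 85.1 and 99.7 FPKM in control-virus ethanol-fed livers and 86.1, 97.2 and 61.4 FPKM in pair-fed livers. Every Mettl3 liver lay below every liver of both other groups, while ethanol-fed and pair-fed control-virus livers overlapped. The mean was 7.99 ± 3.18 FPKM in Mettl3 livers, 137 ± 78.2 FPKM in control-virus ethanol-fed livers and 81.6 ± 18.4 FPKM in pair-fed livers (SD, n = 3 each). On log2(FPKM + 1), the scale of all differences below, Mettl3 minus control virus under ethanol was -3.87 (SE 0.41), the lowest value of 9706 genes tested. Control-virus ethanol-fed minus pair-fed livers was 0.63 and fell to 0.20 without ethanol-fed liver 1, while Mettl3 ethanol-fed minus pair-fed livers was -3.24. Reads behind these values numbered 416 to 964 per Mettl3 liver and 5329 to 18376 per liver elsewhere.

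Klf10, a zinc finger repressor first known as a TGF-beta-inducible early gene, had 8.28, 9.70 and 4.46 FPKM in Mettl3 livers. It had 47.4, 34.8 and 27.8 FPKM in control-virus ethanol-fed livers and 10.1, 17.7 and 7.92 FPKM in pair-fed livers. The ethanol-fed control-virus livers were the high ones, with no overlap with either other group, and Mettl3 and pair-fed livers overlapped. Mettl3 minus control virus was -2.17 (SE 0.29), control-virus ethanol-fed minus pair-fed was 1.58 and Mettl3 ethanol-fed minus pair-fed was -0.59.

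Maff encodes a small Maf protein, a bZIP factor without an activation domain that pairs with CNC factors such as Nrf2. Its levels were 1.13, 1.66 and 0.646 FPKM in Mettl3 livers, against 3.73, 3.29 and 3.67 FPKM in control-virus ethanol-fed livers and 1.15, 3.17 and 2.08 FPKM in pair-fed livers. The ethanol-fed control-virus livers were above all others, with pair-fed liver 2 just under the lowest of them. The difference of Mettl3 from control virus was -1.11 (SE 0.18).

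Tcim, a small protein that acts in Wnt and NF-kB signalling, had 12.4, 9.83 and 11.8 FPKM in Mettl3 livers. The control-virus ethanol-fed livers had 39.8, 26.3 and 26.9 FPKM and the pair-fed livers 12.0, 12.8 and 11.9 FPKM. Mettl3 livers and pair-fed livers were at about the same level, with means of 11.3 ± 1.34 and 12.2 ± 0.474 FPKM (SD, n = 3 each), and every ethanol-fed control-virus liver was above them. Mettl3 minus control virus was -1.36 (SE 0.18).

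Sowahb, an ankyrin repeat protein of little-known function, showed the same arrangement, with the smallest spread of the 8 genes within the control-virus ethanol-fed group on the log2 scale. It had 1.77, 1.03 and 1.21 FPKM in Mettl3 livers, against 3.44, 3.37 and 3.56 FPKM in control-virus ethanol-fed livers and 1.50, 1.06 and 1.61 FPKM in pair-fed livers. Mettl3 and pair-fed livers overlapped, and Mettl3 minus control virus was -0.94 (SE 0.14). The control-virus ethanol-fed mean was 3.46 ± 0.0967 FPKM (SD, n = 3).

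**Figure D1:**
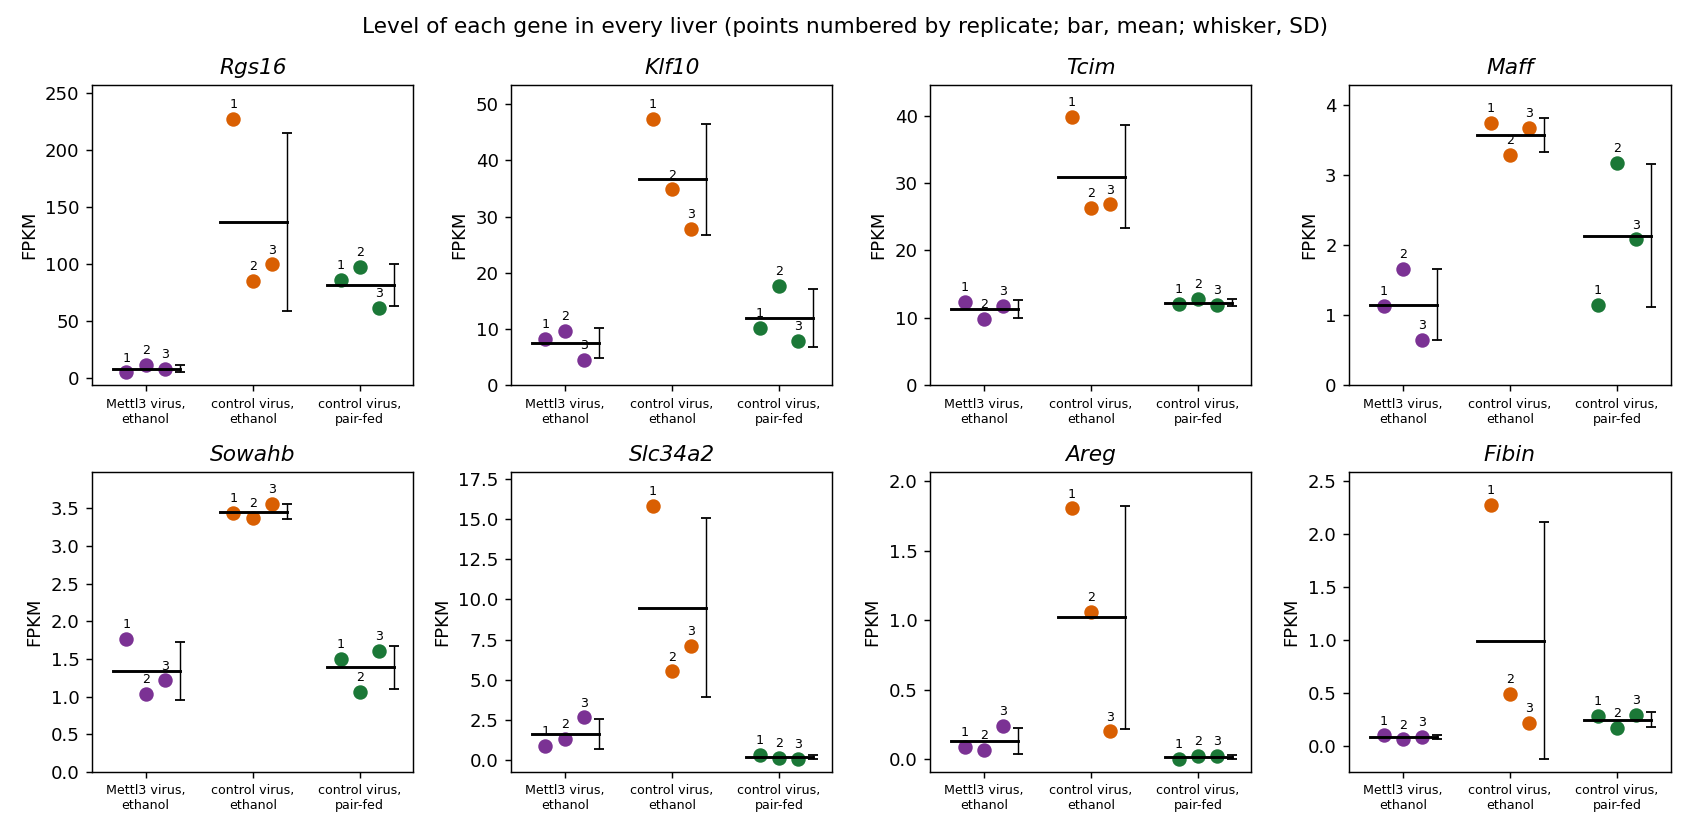
FPKM of each gene (vertical axis, a separate linear scale per panel) in every liver, with points numbered by replicate, the bar at the group mean and the whisker the SD; groups from left to right are Mettl3 virus with ethanol, control virus with ethanol, and pair-fed. Rgs16 and Fibin in the Mettl3 livers lie below the pair-fed livers, Slc34a2 and Areg lie above them, and control-virus ethanol-fed liver 1 is the top point in 7 of 8 panels.

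Slc34a2 encodes NaPi-IIb, a sodium-coupled phosphate importer of the apical membrane. It had 0.869, 1.31 and 2.64 FPKM in Mettl3 livers, 15.9, 5.51 and 7.08 FPKM in control-virus ethanol-fed livers, and 0.300, 0.130 and 0.0579 FPKM in pair-fed livers. None of the 3 groups overlapped, with Mettl3 livers between the others. Mettl3 minus control virus was -1.94 (SE 0.39), control-virus ethanol-fed minus pair-fed was 3.05 and Mettl3 ethanol-fed minus pair-fed was 1.11. The pair-fed values rest on 47, 20 and 9 reads, so differences from them depend on the pseudocount. Summed cholangiocyte markers, given because this carrier marks epithelia, were 26.5 to 51.2 FPKM in Mettl3 livers, 28.9 to 42.0 FPKM in control-virus ethanol-fed livers and 32.6 to 46.3 FPKM in pair-fed livers, with all 8 markers detected. These sums overlapped in all 3 groups and were mostly Spp1, at 31.5 ± 11.1, 28.8 ± 8.56 and 28.3 ± 5.36 FPKM in the same groups (SD, n = 3 each). Of the 5 markers tested in both ethanol-fed groups against pair-fed livers in limma, Sox9 rose by 0.65 (adjusted p 0.000666), Krt19 fell by 0.39 (adjusted p 0.0221; not called under median-ratio scaling) and 3 did not pass. Their part in the Slc34a2 values was not tested. In bulk liver, fewer cells of a type and less RNA per cell cannot be told apart.

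Areg encodes amphiregulin, a ligand of the EGF receptor that is shed from the cell surface. Counted as reads, it had 4, 3 and 11 in Mettl3 livers, 76, 48 and 9 in control-virus ethanol-fed livers and 0, 1 and 1 in pair-fed livers. These correspond to 0.0879, 0.0665 and 0.237 FPKM, 1.80, 1.06 and 0.199 FPKM, and 0, 0.0223 and 0.0221 FPKM. Ethanol-fed control-virus livers 1 and 2 were high and liver 3 lay below Mettl3 liver 3, so that these 2 groups overlapped, while both lay above all pair-fed livers. The Mettl3 minus control virus value was -0.76, or -0.48 without ethanol-fed liver 1 and -1.99 with a pseudocount of 0.1. No fold change over pair-fed livers is given, since these held 2 reads in all. Immune cells also make amphiregulin, and the summed neutrophil markers were 47.5 to 104 FPKM in Mettl3 livers, 8.61 to 72.2 FPKM in control-virus ethanol-fed livers and 6.43 to 10.6 FPKM in pair-fed livers, with 5 of 7 markers in the tables and none of these at 0 in every library. Their part in the Areg values was not tested.

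Fibin, a secreted protein named for its role in zebrafish fin bud initiation, had 8, 5 and 7 reads in Mettl3 livers, 163, 38 and 17 in control-virus ethanol-fed livers and 22, 13 and 23 in pair-fed livers. In FPKM the groups had 0.103, 0.0651 and 0.0887, then 2.27, 0.493 and 0.221, then 0.283, 0.170 and 0.299. The Mettl3 livers were below every liver of both other groups, and ethanol-fed control-virus livers 1 and 2 were above the pair-fed range while liver 3 was inside it. Between the ethanol-fed groups the difference was -0.74, or -0.31 without ethanol-fed liver 1 and -2.05 with a pseudocount of 0.1. Control-virus ethanol-fed minus pair-fed was 0.54, or 0.11 without that liver.

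In 7 of the 8 genes every Mettl3 liver was below every control-virus ethanol-fed liver, Areg being the exception. That arrangement held for 7.81% of all 16266 genes and is what the genes were chosen for, so nothing is read from the count. In 6 of the 8 every control-virus ethanol-fed liver was above every pair-fed liver, against 13.5% of all genes. The ethanol-fed control-virus livers are shared by both counts, so the second is not independent of the choice of genes. Both arrangements together held for Klf10, Tcim, Maff, Sowahb and Slc34a2, 5 of the 8, against 1.68% of all genes. Against pair-fed livers, Mettl3 livers overlapped in Klf10, Tcim, Maff and Sowahb, as in 46.6% of all genes. They were lower without overlap in Rgs16 and Fibin, as in 38.3% of all genes, and higher in Slc34a2 and Areg, as in 15.1%.

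**Figure D2:**
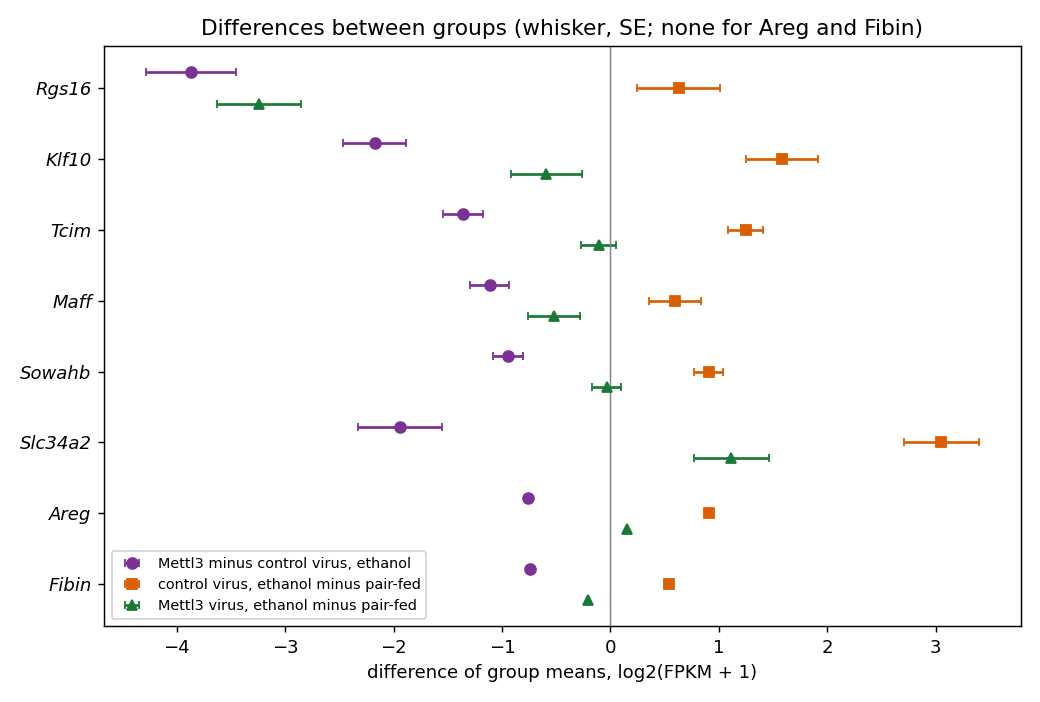
Differences of group means on log2(FPKM + 1) (horizontal axis) for each gene, with circles for Mettl3 minus control virus under ethanol, squares for control-virus ethanol-fed minus pair-fed and triangles for Mettl3 ethanol-fed minus pair-fed; whiskers are SE from limma, with none for Areg and Fibin. Every circle is left of 0 and every square right of it, while triangles run from -3.24 for Rgs16 to 1.11 for Slc34a2; the 3 differences of a gene share samples.

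Across all genes tested for Mettl3 minus control virus under ethanol, limma with Benjamini-Hochberg adjustment called 1 of 9706 genes at 0.05 (0.0103%), and that gene was Mettl3. None of the 6 genes in that fit passed, and Areg and Fibin did not reach the FPKM minimum of 1 in 3 libraries. Over all genes 723 had an unadjusted p below 0.05. That count was 318 without control-virus ethanol-fed liver 1, and 321, 299 and 1726 without Mettl3 livers 1, 2 and 3. limma-voom on recovered reads called 1 gene as well, with 721 at an unadjusted p below 0.05. The authors' deposited table, from DESeq2, lists all 8 genes at q under 0.05, among 84 genes listed as lower (0.510% of 16470). In the authors' deposited table Rgs16 has a log2 fold change of -3.97 and Areg one of -2.85. Both analyses used the contrast that chose the genes, so nothing is read from which of them passed. By size, Rgs16 was first from the bottom of the 9706, followed by the hepatokine gene Fgf21 at -3.37. Klf10 was the sixth, between Angptl8 at -2.21 and Mid1ip1 at -2.12, and Slc34a2 the tenth, between G6pc at -2.02 and Gdf15 at -1.90. Tcim, Maff and Sowahb held ranks 22, 53 and 91. Ranks by size depend on the pseudocount, which shrinks the differences of low genes most. With a pseudocount of 0.1 Tcim was -1.42, Maff -1.64 and Sowahb -1.34.

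**Figure D3:**
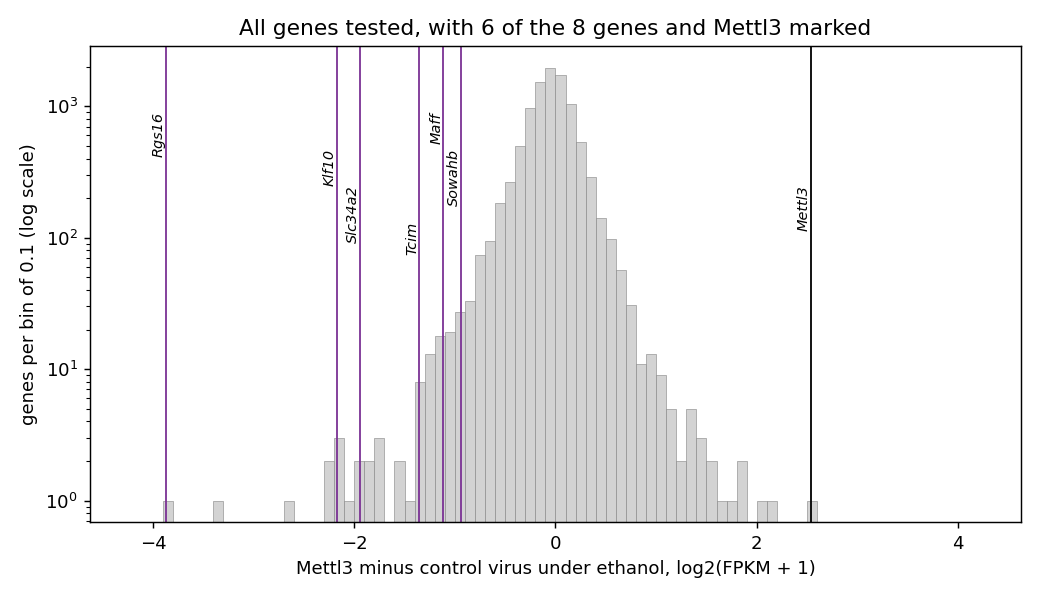
Number of genes (vertical log axis) per bin of 0.1 of Mettl3 minus control virus under ethanol on log2(FPKM + 1), for all 9706 genes tested; lines mark the 6 genes in the fit and Mettl3. Rgs16 is the leftmost gene at -3.87, and Sowahb at -0.94 lies nearest the bulk of all genes.

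The rule that chose the genes did not name the pair-fed livers. With equal group sizes and spread, the average of both ethanol-fed groups against the pair-fed group is orthogonal to the difference between the ethanol-fed groups. Spread was not equal for every gene. Sowahb departed from its group mean by up to 0.25 in Mettl3 livers and 0.03 in control-virus ethanol-fed livers. The same ethanol-fed values enter both comparisons, so calls in this contrast are not fully independent of the choice. The contrast asks whether the genes stood at another level in the 6 ethanol-fed livers than in the 3 pair-fed livers. In limma's fit of all 9 libraries, 4 of the 6 genes passed at an adjusted p of 0.05, where 50.0% of all 10229 genes passed, 14.5% higher and 35.5% lower. Tcim rose by 0.57 (SE 0.14, adjusted p 0.00865) and Sowahb by 0.44 (SE 0.12, adjusted p 0.0134). These averages came from the control-virus livers, since Mettl3 ethanol-fed minus pair-fed livers was -0.11 for Tcim and -0.036 for Sowahb. Slc34a2 was 2.08 (SE 0.30, adjusted p 0.00106), or 3.91 with a pseudocount of 0.1 and 4.70 in limma-voom. It reached the FPKM minimum in 5 livers, all of them ethanol-fed, and so entered the fit through the livers in which it was high, and its call supports nothing. Rgs16 fell by 1.30 (SE 0.33, adjusted p 0.0113), an average over control-virus livers that overlapped the pair-fed livers and Mettl3 livers that were all below them. Klf10 was 0.50 (SE 0.28, adjusted p 0.173) and Maff 0.04 (SE 0.21, adjusted p 0.892), and neither passed. Without pair-fed liver 2, Rgs16 and Sowahb did not pass, with -1.17 at adjusted p 0.0540 and 0.33 at adjusted p 0.0730. An exact two-sided permutation test over the 84 ways to choose 3 of 9 livers, which keeps the difference between the ethanol-fed groups in its spread, allows no p under 0.0119. For the genes below the FPKM minimum this exact test gave p = 0.0952 for Areg and p = 0.821 for Fibin. Of the genes called in limma, it gave an exact p of 0.417 for Rgs16, 0.357 for Tcim, 0.262 for Sowahb and 0.0238 for Slc34a2. For Klf10 and Maff the exact p was 0.548 and 0.964.

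**Figure D4:**
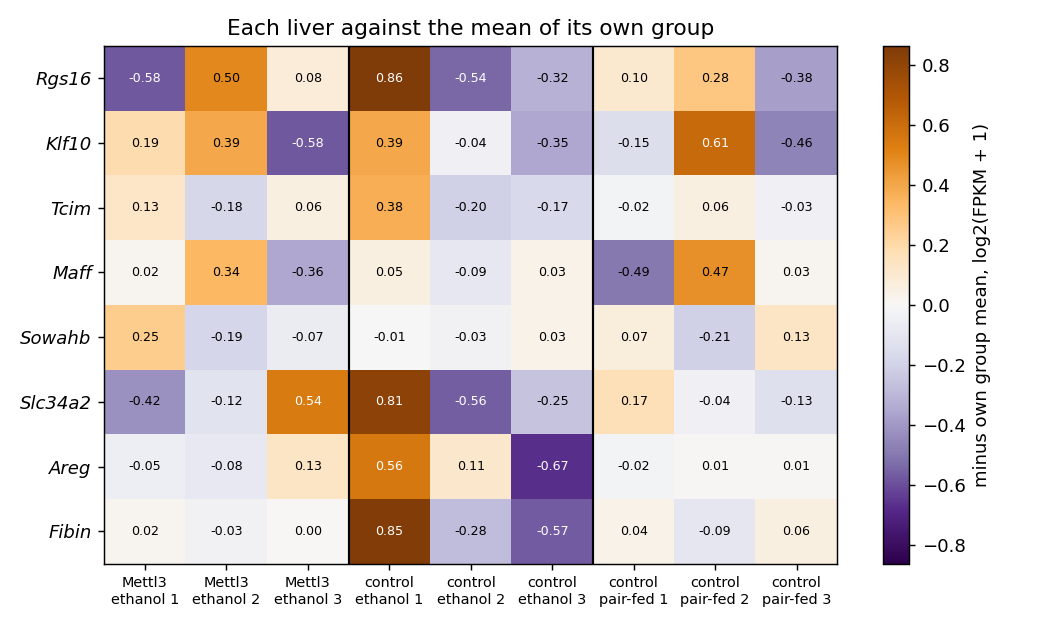
Each liver's log2(FPKM + 1) minus the mean of its own group (color and printed value), genes down and livers across, with Mettl3 livers left, control-virus ethanol-fed livers in the middle and pair-fed livers right. Control-virus ethanol-fed liver 1 reaches 0.86 for Rgs16, 0.85 for Fibin and 0.81 for Slc34a2, while Sowahb stays within 0.03 of its mean in that group.

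Within the control-virus ethanol-fed group the genes differed in how far liver 1 stood out. For Rgs16, Fibin and Slc34a2 it was 0.86, 0.85 and 0.81 above its group mean, for Areg 0.56, and for Klf10 and Tcim 0.39 and 0.38. For Maff it was 0.05 above and for Sowahb 0.01 below. Liver 2 was the lowest of the group in 5 genes and liver 3 in 3. In the Mettl3 group no liver led, with 3, 3 and 2 genes highest in livers 1, 2 and 3. In the pair-fed group liver 2 was highest in 5 of the 8, and for Klf10 it stood 0.61 above its group mean.

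The other members of each gene's family were looked at in the same fits. In Mettl3 minus control virus under ethanol none of them was called, where 1 of all 9706 genes was. The family and pathway counts against pair-fed livers below stand beside 14.5% of all 10229 genes called higher and 35.5% lower. Under median-ratio scaling 2622 of 10180 genes were called higher and 2227 lower. Of 4 other RGS genes tested against pair-fed livers, 3 fell and 1 rose in the ethanol-fed livers. Rgs10 fell by 0.59, Rgs5 by 0.45 and Rgs2 by 0.36, and Rgs1, an RGS gene of lymphocytes and myeloid cells, rose by 0.71. Rgs10 reached the FPKM minimum in every pair-fed liver but in only 1 ethanol-fed liver, control-virus liver 2 at 1.17 FPKM. Its entry to the fit thus rested on the group in which it was high, and its call supports nothing. The same holds for Rgs1, which reached the FPKM minimum in every ethanol-fed liver. Among pair-fed livers it did so only in liver 2, at 1.66 FPKM. Under median-ratio scaling 1 rose, Rgs1, and 1 fell, Rgs10. Rgs5 averaged 14.1 ± 2.38 FPKM in Mettl3 livers, 13.1 ± 2.14 FPKM in control-virus ethanol-fed livers and 18.8 ± 2.35 FPKM in pair-fed livers (SD, n = 3 each), so its Mettl3 livers were not the low ones.

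Of 10 other Kruppel-like factors, 5 fell, 1 rose and 4 did not pass (5 and 2 under median-ratio scaling), where 35.5% of all genes fell and 14.5% rose. Klf12, Klf16, Klf13 and Klf11, the last a close relative of Klf10, fell by 0.96, 0.90, 0.81 and 0.90. Klf16 reached the FPKM minimum in pair-fed livers only, and no ethanol-fed liver was above 0.929 FPKM. It entered the fit through the group in which it was high, so its call supports nothing. Klf6 is singled out after its values were seen. It rose by 0.47 in the ethanol-fed livers (adjusted p 0.0174 in limma) and averaged 4.39 ± 0.848 FPKM in Mettl3 livers, 8.98 ± 1.19 FPKM in control-virus ethanol-fed livers and 4.29 ± 0.722 FPKM in pair-fed livers (SD, n = 3 each). Of 7 other Maf and CNC factors, 5 fell, 0 rose and 2 did not pass, but under median-ratio scaling 1 fell and 1 rose. Mafg, another small Maf, fell by 0.84 in the ethanol-fed livers, and by 0.65 with that scaling. Nfe2l2, which encodes Nrf2, fell by 0.59 and averaged 12.1 ± 2.83 FPKM in Mettl3 livers, 22.7 ± 6.90 FPKM in control-virus ethanol-fed livers and 24.9 ± 0.959 FPKM in pair-fed livers (SD, n = 3 each).

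Among 8 other EGF family ligands, receptors and sheddases, 3 rose, 2 fell and 3 did not pass (4 and 2 under median-ratio scaling). The rise added by that scaling was Btc, which reached the FPKM minimum in ethanol-fed livers only. No pair-fed liver was above 0.5005 FPKM, so Btc entered through the livers in which it was high, and its call supports nothing. The ligand Nrg4 rose by 2.37, with 19.9 ± 9.21 FPKM in Mettl3 livers, 18.6 ± 2.56 FPKM in control-virus ethanol-fed livers and 2.83 ± 0.575 FPKM in pair-fed livers (SD, n = 3 each). Egfr, the receptor of amphiregulin, rose by 1.65, with 69.6 ± 6.44 FPKM in Mettl3 livers, 44.0 ± 19.2 FPKM in control-virus ethanol-fed livers and 16.7 ± 4.38 FPKM in pair-fed livers (SD, n = 3 each). Erbb3 fell by 1.56 and Rhbdf2, a cofactor of shedding, rose by 0.47. Of 3 other phosphate transporters, Slc20a1 rose by 1.50, the phosphate exporter Xpr1 fell by 0.39, a call not made under median-ratio scaling, and Slc20a2 did not pass at 0.19, but passed at 0.41 under median-ratio scaling. Slc20a1 averaged 19.6 ± 7.93 FPKM in Mettl3 livers, 29.7 ± 11.8 FPKM in control-virus ethanol-fed livers and 7.51 ± 0.858 FPKM in pair-fed livers (SD, n = 3 each). Sowahc, the other Sowah gene tested, did not pass at 0.33, and passed higher under median-ratio scaling.

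Rgs16 and Klf10 share the list of ChREBP and its targets with 19 other tested genes. In the ethanol-fed livers 9 of these rose, 2 fell and 8 did not pass, and the same counts were called under median-ratio scaling. Mlx, the partner of ChREBP, rose by 0.91, and Scd1 rose by 0.53. Mlxipl, which encodes ChREBP itself, fell by 0.97 and Txnip by 1.25. In Mettl3 minus control virus 0 of the 19 were called in limma, and 18 of 19 had a value below 0, Mlx being the exception, with a median of -0.61 where all genes had a median of -0.04 and 58.9% were below 0. Under median-ratio scaling the list's median was -0.53. Mlxipl averaged 22.5 ± 6.95 FPKM in Mettl3 livers, 40.5 ± 11.7 FPKM in control-virus ethanol-fed livers and 58.7 ± 7.57 FPKM in pair-fed livers (SD, n = 3 each), and Txnip 21.1 ± 3.08, 57.0 ± 24.5 and 86.9 ± 39.6 FPKM in the same groups.

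**Figure D5:**
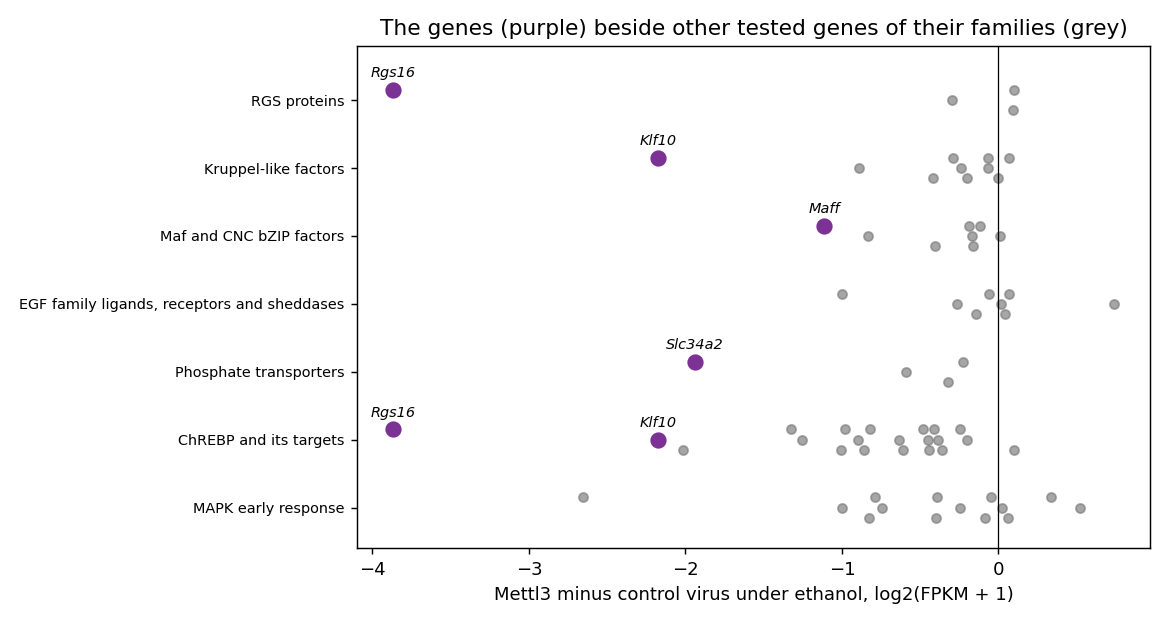
Mettl3 minus control virus under ethanol on log2(FPKM + 1) (horizontal axis) for tested genes of 7 family and pathway lists (rows); purple points are the named genes, grey points the other members, and vertical offsets only separate points. Rgs16, Klf10, Maff and Slc34a2 are the leftmost points of the RGS, Kruppel-like, Maf and CNC, and phosphate transporter rows, which is what they were chosen for, and in the ChREBP row 18 of 19 other genes are left of 0.

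Early-response genes of the MAPK pathway had 9 of 14 higher, 1 lower and 4 not passing in the ethanol-fed livers, and the same counts of 9 and 1 under median-ratio scaling. Jund, Jun and Junb rose by 1.11, 1.23 and 1.28, while Phlda1 fell by 1.49. TGF-beta early-response genes had 3 of 12 higher and 5 lower (3 and 3 under median-ratio scaling), cAMP and CREB targets 1 of 8 higher and 2 lower (2 and 0 of 7), and YAP targets 1 of 8 higher and 5 lower (1 and 3). Over all genes 14.5% were higher and 35.5% lower. Only 11 TGF-beta, 7 cAMP and 6 YAP genes also passed the FPKM filter in the ethanol-fed livers alone. The others entered the fit with the pair-fed livers, so a fall called among them supports nothing. Ccn1, lower by 1.34, is such a gene, with 3.02, 3.54 and 3.71 FPKM in pair-fed livers and at most 1.94 FPKM in ethanol-fed livers. In Mettl3 minus control virus 0 genes of these 4 lists were called, with medians of -0.32 for MAPK, 0.05 for TGF-beta, 0.26 for cAMP and -0.09 for YAP genes.

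The genes most like Rgs16 over the 9 livers were sought by the root-mean-square difference of log2(FPKM + 1) after centring each gene on its own mean. The nearest were Mup-ps16 at 0.93, Angptl8 at 0.98 and Ppp1r3b at 1.03, with a median of 1.72 over all other genes. Rgs16 itself varied by 1.76 about its mean. The nearest to Klf10 were Gadd45a at 0.41, Gdf15 at 0.54 and 2310034O05Rik at 0.57, where the median was 1.03 and Klf10 varied by 1.00. Gadd45a, a growth arrest gene, averaged 3.07 ± 0.624 FPKM in Mettl3 livers, 20.9 ± 12.4 FPKM in control-virus ethanol-fed livers and 4.65 ± 0.570 FPKM in pair-fed livers (SD, n = 3 each). Mup-ps16 is a pseudogene of a large family and can share reads with its copies.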

How the data were processed

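The tools fastp, HISAT2 and HTSeq and the build mm10 are named in the submitters' processing notes; versions and the strand setting are not given in the sources used here. The authors deposited 2 tables with FPKM per library. Per the file headers the authors' DESeq2 columns hold a signal (mean normalized count), a linear ratio (fold change), its log2, and p-values and q-values. The tables hold 16842 and 16470 genes, 16266 of them in both. The ethanol-fed control-virus columns, present in both, differed by a relative 1.08e-06 at most.

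Since values are FPKM, tests used limma 3.58.1 in R 4.3.3 (trend and robust) on log2(FPKM + 1), keeping genes that reached an FPKM of 1 in 3 or more libraries; p-values were adjusted over all of them (Benjamini-Hochberg, threshold 0.05). Fold changes on this scale understate those of low genes. Since 3 libraries suffice, a gene can enter a fit through the group in which it is high, and its call then supports nothing. The list counts include such genes. Whole reads were recovered from the FPKM and signal columns (100% within 0.05 of a whole number, below 1000 reads). The fits were tested on simulated data. Python 3.11.15, numpy 2.4.6, pandas 2.3.3 and matplotlib 3.10.9 were used. Alternatives were another pseudocount, no filter, median-ratio scaling, limma-voom, a replicate block, single ethanol-fed groups and leaving out each library.

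The genes and lists were chosen with earlier results of these data known. The text names all 8 genes, Mettl3, up to 4 called genes per list by smallest p, neighbours in rank and the 3 nearest in pattern to Rgs16 and to Klf10. Klf6 and Btc are outside that rule. Overlapping or antisense genes can share reads.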

Additional observations from a re-analysis of the deposited data

How the results depend on the processing

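The count of genes called in Mettl3 minus control virus under ethanol, 1 as reported, was 0 with no filter on low values and 0 with a replicate block, and ran from 0 to 2 when a library was left out, with 0 without Mettl3 livers 1 or 3 or control-virus ethanol-fed livers 2 or 3. The 2 genes, called without control-virus ethanol-fed liver 1, were Mettl3 and Fgf21; none of the 8 genes was called in any of these alternatives. The count for both ethanol groups minus pair-fed livers, 5117 as reported, ran from 3209 (without pair-fed liver 3) to 5746 when a library was left out and was 4614 with the replicate block; without pair-fed liver 2 it was 3316. Median-ratio scaling moved the median of all genes in that comparison from -0.16 to 0.03 and gave 2622 higher and 2227 lower genes in place of 1485 and 3632. Of the 8 genes 6 were tested there and 4 were called, from 2 to 4 when a library was left out. For Mettl3 ethanol-fed minus pair-fed livers alone 1 of 5 tested was called. Slc34a2 missed the FPKM minimum in that fit and was not tested. Taking 1 ethanol-fed group at a time, by construction, turned Rgs16 to 0.63 in control-virus livers and Tcim and Sowahb to -0.11 and -0.036 in Mettl3 livers. Across the other 14 alternatives adjusted p in limma ran from 0.00162 to 0.0540 for Rgs16, 0.00108 to 0.0401 for Tcim, 0.00559 to 0.0730 for Sowahb and 0.000454 to 0.00925 for Slc34a2. All 8 genes kept a value below 0 for Mettl3 minus control virus in each alternative. They were chosen for that sign, and several alternatives leave this difference unchanged by construction, so nothing is read from it. The number of genes higher in Mettl3 ethanol-fed than in pair-fed livers was 2, and 4 under median-ratio scaling, where Tcim and Sowahb were 0.14 and 0.12. The labels do not say whether replicate numbers pair the livers. Correlations of same-numbered livers' deviations ran from -0.41 to 0.39, which cannot decide it, and the block changed no call of the 8 genes. Areg and Fibin rest on few reads, which limits their values.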
